A study of Mus musculus with 4 samples.

Results

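The axon guidance ligands and receptors measured here are 67 of the 22180 genes with a value, and 67 of the 18310 genes whose log2 signal reached 6 on at least 1 array. They were chosen by name: ephrins (Efna, Efnb) and Eph receptors (Epha, Ephb), semaphorins of classes 3 to 7, neuropilins, plexins, Slit and Robo genes, netrins, and Unc5a to Unc5d. The 67 genes were read by 70 probe sets, and Ephb1, Plxna1 and Plxnb1 each had a second one. The name rule also brought in Plxna4os1, a gene antisense to Plxna4, which is no ligand or receptor and is counted apart from the 34 ligands and 32 receptors. The rule used names and no measured value, but it was set with earlier results of these data known.

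Gene expression was measured on Affymetrix arrays in P19, an embryonal carcinoma line of the mouse that can be differentiated with retinoic acid. Wild-type P19 cells, labelled WT for stable integrates, were compared with a P19 clone carrying the integrates pBI-EGFP-FLAG-mCtcfl and pTA-N, called the Ctcfl line here. The Ctcfl line is a single clone whose Tet-Off transgene was switched on by leaving out doxycycline for 2 days; Ctcfl is the testis paralog of Ctcf, an insulator protein. Both lines were measured undifferentiated, with ethanol as vehicle, and after 4 days in 10 µM retinoic acid, on 1 array per condition and 4 arrays in all. For wild-type cells the labels conflict: the characteristics give 2 µg/ml doxycycline and the growth protocol gives ordinary medium. A difference between the lines is therefore a difference between a clone with 2 vectors and the parental cells, with doxycycline possibly differing as well.

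Guidance molecules were first described as signals that steer growing axons, and many also act in cell sorting, vessels and migrating neural crest. Ephrins are bound to the membrane and signal through Eph receptor tyrosine kinases on the neighbouring cell. Class 3 semaphorins are secreted and mostly bind neuropilins, which signal with A-type plexins, whereas the other vertebrate semaphorins are mostly membrane-bound and bind plexins directly. Slits act through Robo receptors, and netrins attract through Dcc and Neo1 and repel through Unc5 receptors. In the embryo, retinoic acid patterns the hindbrain and spinal cord, where these families guide axons.

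Over both lines, 13 of the 67 genes rose with retinoic acid and 1 fell in a limma fit across all genes (Benjamini-Hochberg adjusted p under 0.05). This is 19.4% of the members rising, where 4.21% of all 18310 genes rose, and 1.49% falling, where 2.44% of all genes fell. The genes that rose were the secreted semaphorins Sema3a, Sema3c and Sema3d, the receptors Nrp1, Plxna2, Plxnb1, Robo2 and Unc5c, the membrane semaphorins Sema6c and Sema6d, the ephrins Efna5 and Efnb1, and Slit2. The gene that fell was Epha1. By role, 8 of 34 ligands and 5 of 32 receptors rose. The median retinoic acid effect of the members was log2 0.20, and that of all genes was log2 -0.05. With quantile normalization of the arrays, 14 members rose and 3 fell. The fit has retinoic acid and line as additive terms and 1 residual degree of freedom per gene, so a gene that responded unequally in the lines passed less easily.

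The 250 bases before the start of the 3 members with the largest fitted rises, Plxna2, Nrp1 and Sema3d, and of Epha1 are shown because these genes set the upper and lower ends of the response. They are RefSeq sequences on GRCm38.p6, written 5′ to 3′ on the gene's strand. Plxna2 lies at chr1:194619579-194619828 on the plus strand, Nrp1 at chr8:128358823-128359072 on the plus strand, Sema3d at chr5:12382916-12383165 on the plus strand and Epha1 at chr6:42373269-42373518 on the minus strand. Capitals mark the hexamer AGGTCA, the binding unit of retinoic acid receptors, read on either strand.
Plxna2: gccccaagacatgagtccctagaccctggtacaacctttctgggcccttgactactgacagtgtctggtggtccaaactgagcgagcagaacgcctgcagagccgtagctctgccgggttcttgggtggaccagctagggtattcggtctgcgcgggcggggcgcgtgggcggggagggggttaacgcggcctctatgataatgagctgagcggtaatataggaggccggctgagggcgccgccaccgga
Nrp1: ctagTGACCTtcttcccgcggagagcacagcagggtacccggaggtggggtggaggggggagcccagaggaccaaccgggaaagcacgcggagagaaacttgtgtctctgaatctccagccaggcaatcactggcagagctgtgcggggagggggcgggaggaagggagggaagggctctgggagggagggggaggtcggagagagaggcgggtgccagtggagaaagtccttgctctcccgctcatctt
Sema3d: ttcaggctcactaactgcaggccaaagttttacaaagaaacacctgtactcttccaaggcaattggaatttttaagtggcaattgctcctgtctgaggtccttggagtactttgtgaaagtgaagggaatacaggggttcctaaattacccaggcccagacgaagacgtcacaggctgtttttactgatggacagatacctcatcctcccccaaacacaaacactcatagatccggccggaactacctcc
Epha1: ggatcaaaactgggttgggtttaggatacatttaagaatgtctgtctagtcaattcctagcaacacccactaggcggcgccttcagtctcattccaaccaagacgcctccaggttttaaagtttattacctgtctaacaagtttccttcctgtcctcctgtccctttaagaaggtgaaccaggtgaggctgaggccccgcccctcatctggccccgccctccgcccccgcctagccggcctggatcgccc

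Of these 4 windows, that of Nrp1 held the hexamer once, as its reverse complement between 246 and 241 bases before the start. The windows differ in base composition: G and C made up 62.8% of the bases for Plxna2, 64.4% for Nrp1, 46.8% for Sema3d and 54.4% for Epha1. For 57 of the 67 members the RefSeq table held 73 windows, of which 10 (13.7%) had the hexamer, beside 4607 of all 32851 windows (14.0%). Among the 17 windows of the members that rose, 1 had it (5.88%). Direct repeats of the retinoic acid response element type were searched with a looser hexamer, (A or G)G(G or T)TCA, at spacings of 1, 2 or 5 bases. They were found in 140 of all windows (0.426%) and in 0 of the 73 member windows. The member windows were richer in G and C than the table as a whole, with medians of 64.4% and 52.4%. These are matches of letters within 250 bases, not binding sites.

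**Figure D1:**
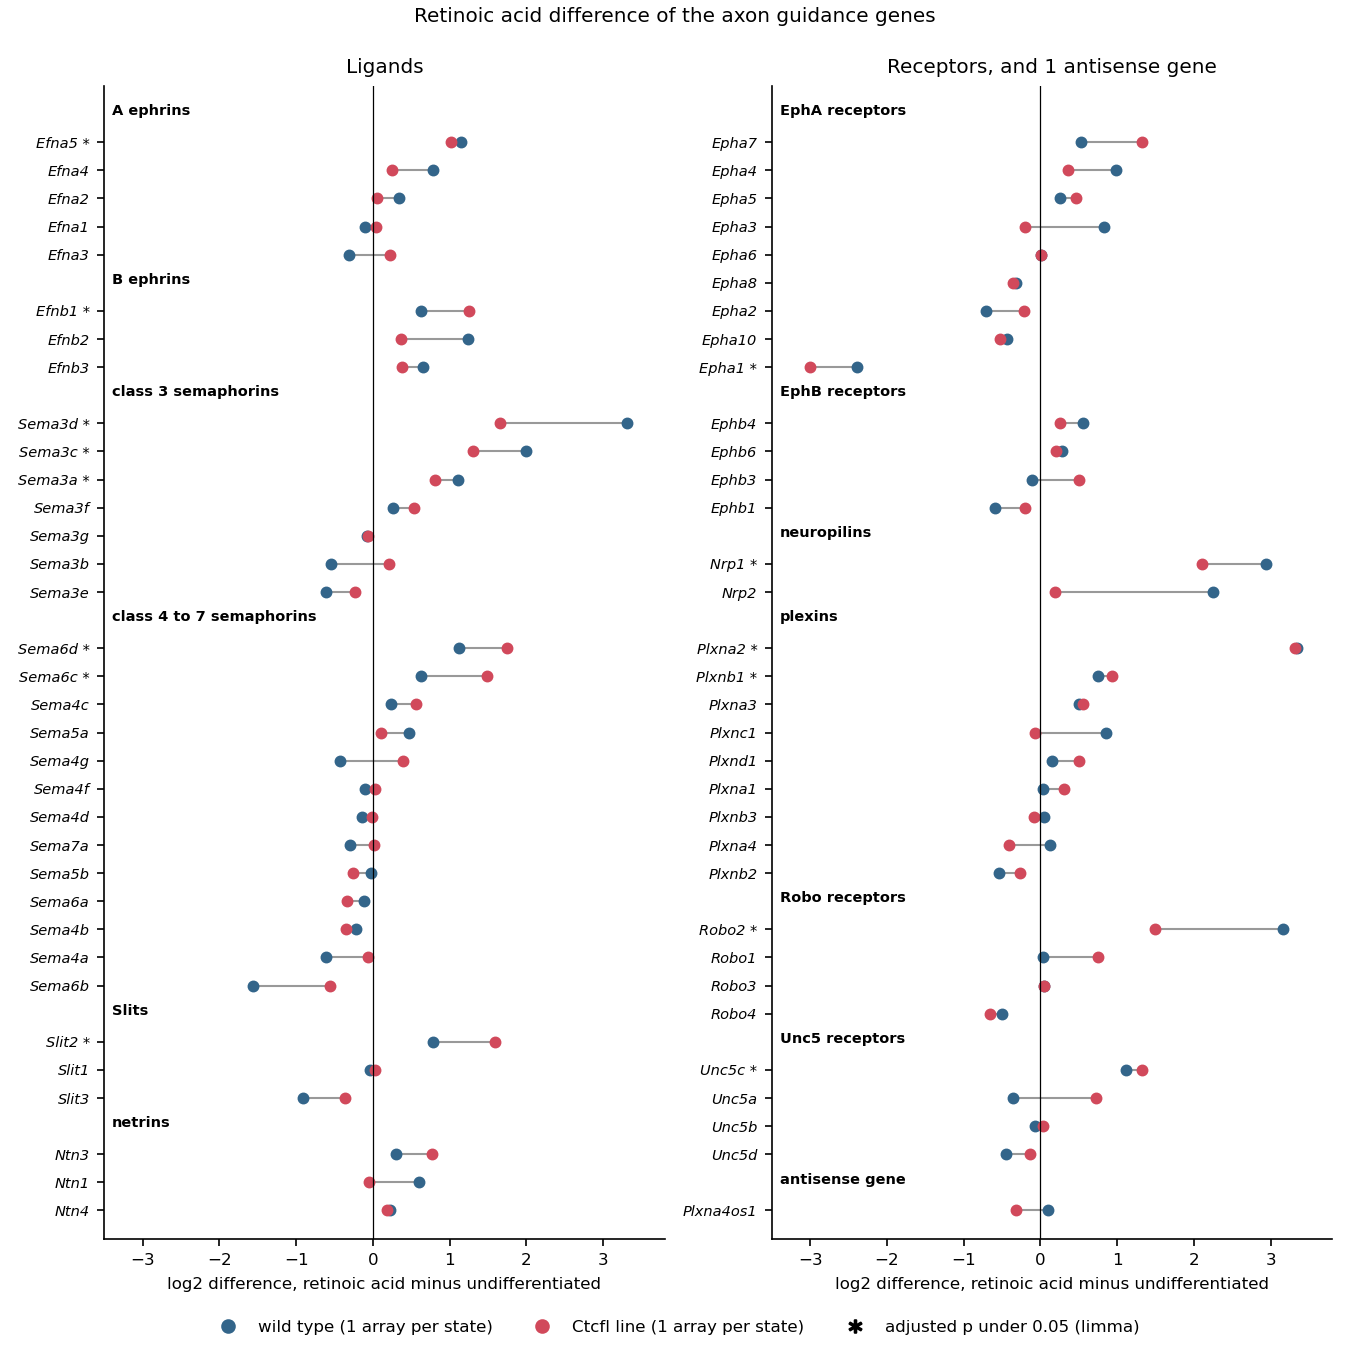
Log2 difference with retinoic acid of each of the 67 genes (horizontal axis) in the wild type and the Ctcfl line, ordered within families by the mean of both lines; each point is a difference of 2 arrays and an asterisk marks an adjusted p under 0.05 in limma. Plxna2 lies furthest to the right at 3.34 and 3.31 and Epha1 furthest to the left at -2.39 and -3.00, while points of Nrp2, Robo2 and Sema3d lie far apart.

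Neuropilins and A-type plexins form the receptor for class 3 semaphorins. The log2 signal of Plxna2, a plexin that binds class 6 semaphorins as well, was 7.85 in undifferentiated and 11.19 in retinoic acid-treated wild-type P19, and 8.19 and 11.50 in the Ctcfl line. Both treated arrays were more than 3 log2 units above both undifferentiated arrays. Plxna2 rose 10.0-fold (log2 3.33 ± 0.15, SE, adjusted p = 0.000335, higher in 2 of 2 lines). Nrp1, the neuropilin that binds Sema3a and also VEGF-A, had signals of 6.13 and 9.07 in the wild type and 6.47 and 8.58 in the Ctcfl line, in the same order. Both undifferentiated signals were below log2 7.04, the 95th percentile of the highest signals of 1088 olfactory receptor genes, taken here as a background range. Nrp1 rose by 2.52 ± 0.22 (SE) on the log2 scale (limma adjusted p = 0.00253), a size that is not exact because it is set against that range.

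Nrp2, the neuropilin preferred by Sema3f, behaved unequally in the lines. Its signal was 7.42 in undifferentiated and 9.67 in treated wild-type cells, but 9.26 and 9.45 in the Ctcfl line. The lone low array was thus that of undifferentiated wild-type cells, and the 3 others lay within 0.5 log2 units of each other. The retinoic acid difference was log2 2.26 in the wild type and 0.20 in the Ctcfl line, and Nrp2 did not pass over both lines (adjusted p = 0.155 in limma).

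Of the 9 plexins, Plxna2 and Plxnb1 rose and 7 did not pass. Plxnb1, the receptor for Sema4d, had signals of 8.42 and 9.17 in the wild type and 8.26 and 9.20 in the Ctcfl line, undifferentiated and treated. It rose 1.79-fold (adjusted p = 0.0267 in limma). Its second probe set was higher with retinoic acid by log2 0.26 and 0.17, where the first gave 0.75 and 0.94, and with the mean of both Plxnb1 did not pass (adjusted p = 0.0933). Among the other A-type plexins, Plxna1 differed by log2 0.03 and 0.31 in the wild type and the Ctcfl line. A second probe set of Plxna1 differed by log2 -0.18 and 0.01. Plxna3 differed by 0.50 and 0.56, and Plxna4 by 0.12 and -0.41. The large rise of Plxna2 was thus not seen in the signals of its close paralogs. Plxna4os1 differed by log2 0.10 and -0.31, close to the values of Plxna4, which it overlaps in antisense; the strand the probe sets read was not tested. Plxnb2, a receptor for Sema4c and Sema4g, differed by log2 -0.55 and -0.26 and did not pass.

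The class 3 semaphorins are the secreted ligands of this receptor system, and 3 of 7 rose while 4 did not pass. Sema3d had a log2 signal of 5.91 in undifferentiated and 9.22 in treated wild-type P19, and of 6.76 and 8.42 in the Ctcfl line. Both undifferentiated arrays lay below both treated ones, and the step was larger in the wild type. Sema3d rose by 2.48 ± 0.36 (SE) on the log2 scale (adjusted p = 0.013 in limma), a size and SE that are not exact because both undifferentiated signals were in the background range below log2 7.04. Sema3c, a neural crest and cardiac outflow semaphorin, had signals of 7.90 and 9.89 in the wild type and 8.10 and 9.40 in the Ctcfl line. It rose 3.13-fold (adjusted p = 0.00743). Sema3a, which repels many axons through Nrp1, had signals of 7.09 and 8.21, and of 6.84 and 7.65, in the same order. For both genes the 2 treated arrays lay above the 2 undifferentiated ones, of which 1 of Sema3a was in the background range. Sema3a rose 1.95-fold (adjusted p = 0.0207).

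The others of class 3 did not pass. Sema3e, which binds Plxnd1 without a neuropilin, differed by log2 -0.61 in the wild type and by -0.23 in the Ctcfl line (adjusted p = 0.189 in limma). Sema3f differed by log2 0.26 and 0.54, Sema3g by -0.08 and -0.06, and Sema3b by -0.55 and 0.20. In the RefSeq gene table Sema3d and Sema3a are adjacent, with 0 protein-coding genes between them, and 3 protein-coding genes separate Sema3a from Sema3e. The 2 adjacent genes rose, and Sema3e, next in that order of members, had a lower signal with retinoic acid in both lines. Sema3c, which rose, follows 15 protein-coding genes after Sema3e.

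Among the 13 membrane-bound semaphorins of classes 4 to 7, Sema6c and Sema6d rose and 11 did not pass. Class 6 semaphorins are transmembrane ligands of A-type plexins. Sema6d had signals of 7.75 and 8.87 in the wild type and 7.52 and 9.28 in the Ctcfl line, undifferentiated and treated. It rose 2.71-fold (effect log2 1.44 ± 0.19, SE, and limma adjusted p = 0.0101). Sema6c had signals of 8.37 and 9.0, and of 7.49 and 8.97. Its treated signals were nearly equal in the lines, and the undifferentiated ones were 0.88 log2 units apart. Sema6c rose 2.08-fold (adjusted p = 0.043), and without the filter on low signals its adjusted p was above 0.05.

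Sema6b of the same class went the other way. Its signals were 9.31 and 7.74 in the wild type and 8.46 and 7.90 in the Ctcfl line. Both treated arrays lay below both undifferentiated arrays, but the difference was larger in wild-type cells (log2 -1.57 and -0.57). Sema6b had an effect of log2 -1.07 and did not pass (adjusted p = 0.056), though it did with quantile normalization or with a variance prior that follows mean expression. Sema6a differed by log2 -0.12 and -0.34. The class 4 genes Sema4a, Sema4b, Sema4c, Sema4d, Sema4f and Sema4g, with Sema5a, Sema5b and Sema7a, had effects between log2 -0.34 and 0.40.

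**Figure D2:**
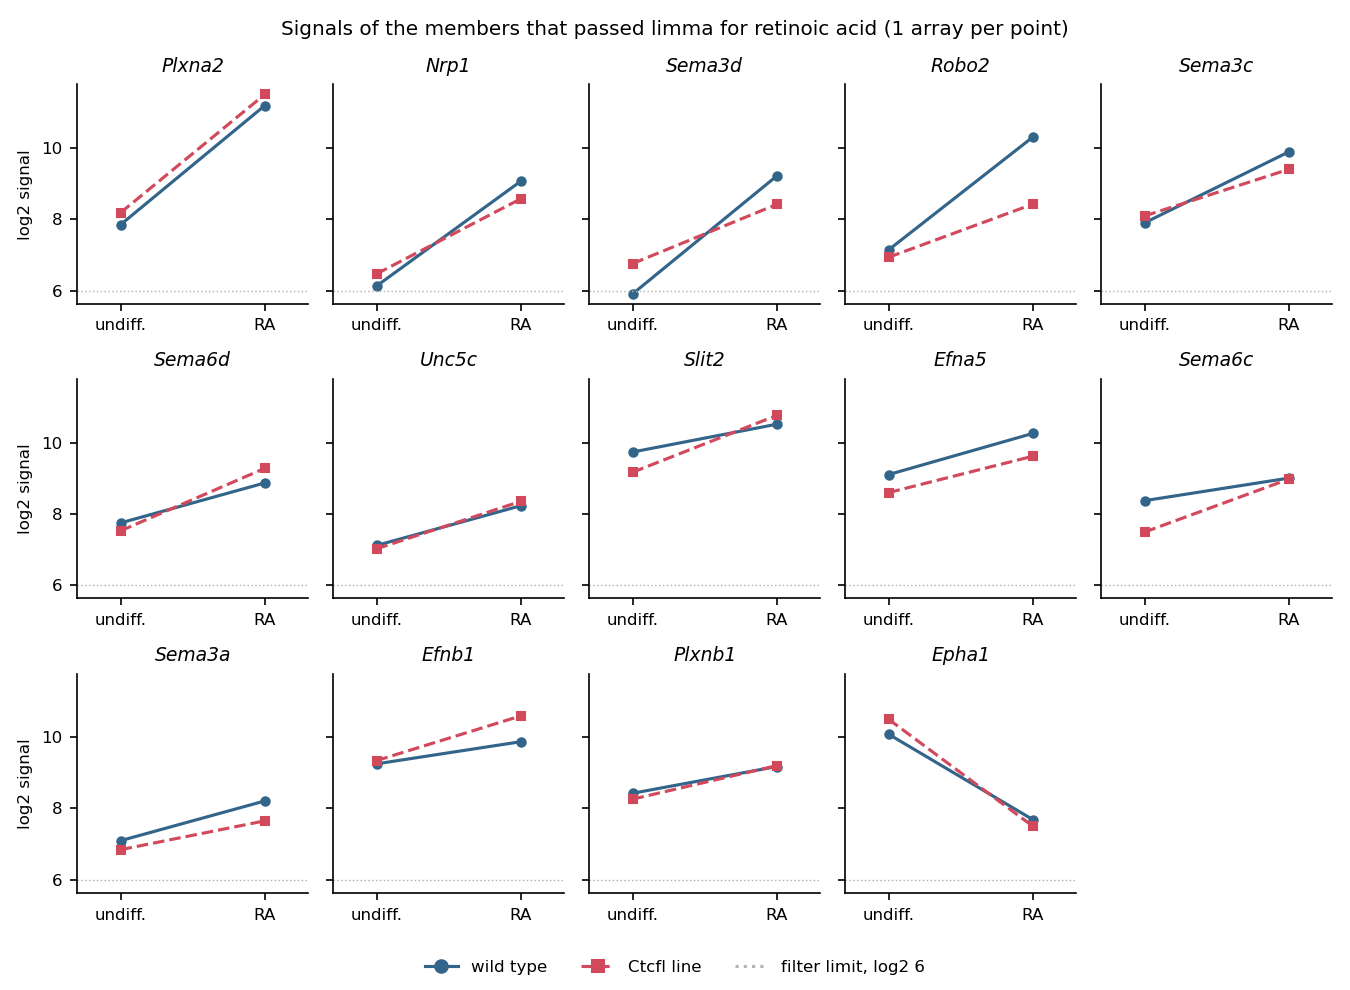
Log2 signal on each of the 4 arrays of the 14 genes that passed limma for retinoic acid, undifferentiated on the left and after retinoic acid (RA) on the right of each panel, with the filter limit of log2 6 dotted. Plxna2 and Unc5c gave nearly parallel lines, Robo2 and Sema3d diverged between the lines, and Epha1 is the panel that slopes down.

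Slit proteins and their Robo receptors repel axons from the midline. Robo2 had a log2 signal of 7.14 in undifferentiated and 10.31 in treated wild-type P19, and of 6.94 and 8.42 in the Ctcfl line. The undifferentiated signals were close to each other. That of the wild type was just above log2 7.04, and that of the Ctcfl line was in the background range below it. The size of the rise is therefore not exact. The treated signal of the Ctcfl line lay between the undifferentiated signals and that of treated wild-type cells. Robo2 rose 5.01-fold over both lines (effect log2 2.32 ± 0.36, SE, and limma adjusted p = 0.0168), by log2 3.16 in the wild type but 1.49 in the Ctcfl line. Robo1, the adjacent gene with 0 protein-coding genes between them, differed by log2 0.03 and 0.75 and did not pass (adjusted p = 0.3). Robo4, a receptor of endothelial cells, had an effect of log2 -0.58 (adjusted p = 0.0757), with signals between 6.42 and 7.07. Robo3, which lets axons cross the midline, had signals between 6.20 and 6.38 and differed by log2 0.05 in both lines.

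The ligand Slit2 had signals of 9.73 and 10.51 in the wild type and 9.17 and 10.76 in the Ctcfl line. It rose 2.28-fold (effect log2 1.19 ± 0.22, SE, and limma adjusted p = 0.0284, higher in 2 of 2 lines). Slit3 had signals of 9.72 and 8.81, and of 9.29 and 8.92, so that it was lower with retinoic acid in both lines, and did not pass (log2 -0.64, adjusted p = 0.0963); with quantile normalization it did. Slit1 differed by log2 -0.03 and 0.02. The 3 Slit genes thus had effects from log2 -0.64 to 1.19.

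Of the 4 Unc5 receptors for netrins, Unc5c rose and 3 did not pass. Unc5c had signals of 7.11 and 8.23 in the wild type and 7.02 and 8.35 in the Ctcfl line, and rose 2.33-fold (effect log2 1.22 ± 0.15, SE, and limma adjusted p = 0.00827). The lines differed by log2 -0.09 undifferentiated and 0.12 treated. The undifferentiated signal of Unc5c was just above log2 7.04 in the wild type and just below it, in the background range, in the Ctcfl line. The size of its rise is therefore not exact. Unc5b differed by log2 -0.07 and 0.04 with retinoic acid, and Unc5d by -0.44 and -0.14. Netrins themselves did not pass: Ntn1, the floor plate netrin, differed by log2 0.60 and -0.05, Ntn3 by 0.30 and 0.76, and the basement membrane netrin Ntn4 by 0.22 and 0.18.

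Among the 8 ephrins, Efna5 and Efnb1 rose and 6 did not pass. Efna5, an ephrin anchored by a lipid and known from retinal mapping, had signals of 9.10 and 10.25 in the wild type and 8.60 and 9.62 in the Ctcfl line. It rose 2.12-fold (adjusted p = 0.0111 in limma). Efnb1, an X-linked transmembrane ephrin, had signals of 9.25 and 9.87, and of 9.34 and 10.59. Each gene was higher on both treated arrays than on both undifferentiated ones. Efnb1 rose 1.91-fold (adjusted p = 0.0399), but like Sema6c it did not pass without the filter on low signals, where the larger adjusted p of both was 0.0564.

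Efnb2, the ephrin of arteries and somite borders, had signals of 9.62 and 10.85 in the wild type and 10.06 and 10.43 in the Ctcfl line. It was higher with retinoic acid in both lines and did not pass (log2 0.80, adjusted p = 0.0938 in limma). Efnb3 differed by log2 0.65 and 0.38. Efna1, Efna3 and Efna4 are adjacent in the genome with 0 protein-coding genes between neighbours, and differed by log2 -0.11 and 0.04, -0.32 and 0.23, and 0.78 and 0.24. None of these 3 neighbours passed. Efna2 differed by log2 0.33 and 0.06.

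Of the 13 Eph receptors, Epha1 fell and 12 did not pass. Epha1, a receptor of epithelia, had signals of 10.08 and 7.69 in the wild type and 10.50 and 7.50 in the Ctcfl line. Both treated arrays were over 2 log2 units below both undifferentiated arrays. In limma Epha1 fell 6.48-fold, with an effect of log2 -2.70 ± 0.19 (SE) and an adjusted p of 0.00121, in 2 of 2 lines. Epha7, a receptor of hindbrain and cortex, had signals of 9.59 and 10.12 in the wild type and 8.16 and 9.48 in the Ctcfl line. Its effect of log2 0.93 did not pass (adjusted p = 0.0563), though it did with quantile normalization, at log2 0.85. Epha4, which marks hindbrain segments, was higher by log2 0.99 and 0.35 (adjusted p = 0.0995).

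The other EphA receptors differed little on average. Epha2, Epha8 and Epha10 had effects between log2 -0.48 and -0.34, and Epha3, Epha5 and Epha6 between 0.01 and 0.36. Signals of Epha5 stayed between 6.39 and 6.95 and those of Epha6 between 6.05 and 6.14. Among the EphB receptors, Ephb4, the venous partner of Efnb2, had an effect of log2 0.41, the kinase-dead Ephb6 0.24, Ephb3 0.20 and Ephb1 -0.40. A second probe set of Ephb1 differed by log2 -0.43 and -0.05, where the first gave -0.60 and -0.20.

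Fold differences between single arrays describe each line without a test. They come from the same arrays as the limma fit, which averages them over the lines, so they are no independent support for it. With retinoic acid, 11 members were at least 2-fold higher in wild-type cells (2.58% of all genes were) and 2 were lower by as much (2.62%). In the Ctcfl line the numbers were 12 higher (3.21% of all genes) and 1 lower (1.5%). Efna5, Nrp1, Plxna2, Robo2, Sema3c, Sema3d, Sema6d and Unc5c were at least 2-fold higher in both lines. Efnb2, Nrp2 and Sema3a reached 2-fold in wild-type cells, and Efnb1, Epha7, Sema6c and Slit2 in the Ctcfl line. As a guide to error between probe sets, log2 differences of different probe sets of 1 gene had an SD of 0.30 in the wild type and 0.33 in the Ctcfl line, from 874 genes. These probe sets were read on the same arrays, so the SD leaves out error between arrays and cultures.

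**Figure D3:**
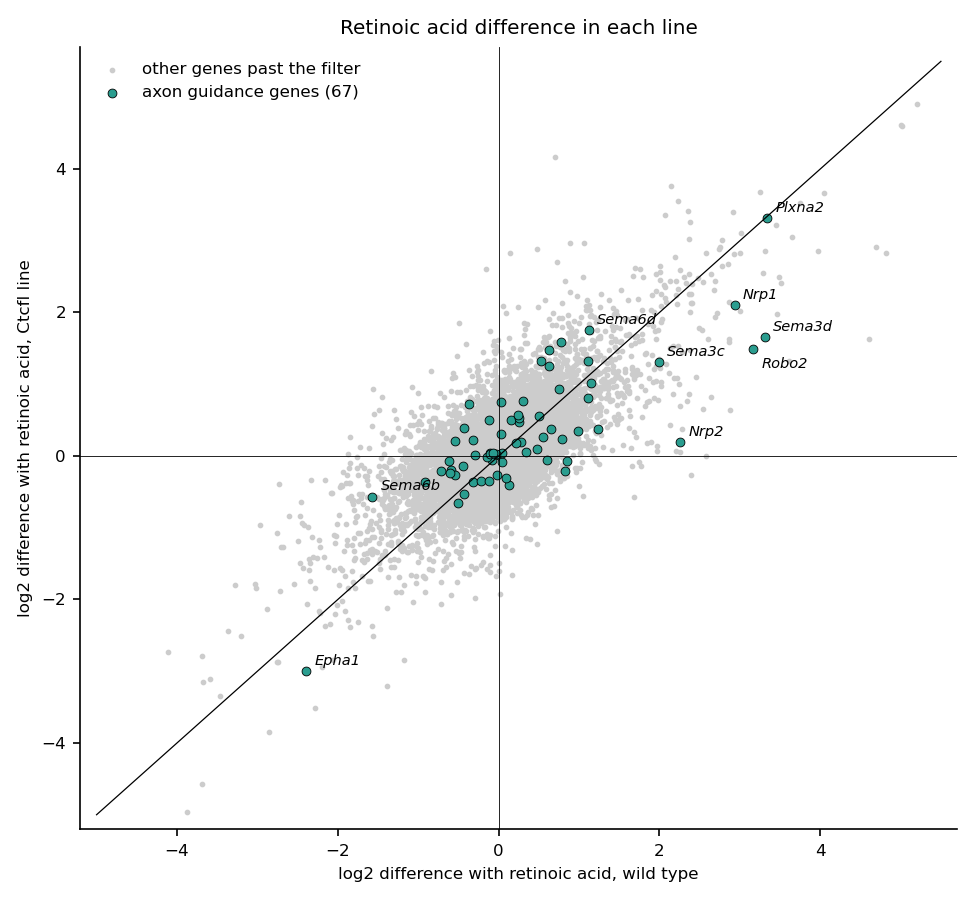
Log2 difference with retinoic acid in wild-type cells (horizontal) and in the Ctcfl line (vertical) of the 67 axon guidance genes over all other genes past the filter, with the line of equal differences; no array is shared between the axes. Plxna2 lies on the diagonal, Nrp2, Robo2 and Sema3d lie below it, and Epha1 lies among the lowest genes.

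The second question was which of these genes differed with the Ctcfl line. Ctcfl itself, which checks the labels, had a log2 signal of 7.86 and 7.13 in undifferentiated and treated wild-type P19, and 10.41 and 9.56 in the Ctcfl line. In limma 0 of the 67 members passed for the line, where 0.0273% of all genes rose and 0.0164% fell, which is 5 and 3 genes. At an unadjusted p under 0.05 there were 10 members, 5 higher and 5 lower in the Ctcfl line, beside 1796 of all genes (9.81%). The smallest adjusted p among members was 0.152. Their median line effect was log2 -0.09, that of all genes -0.03. For retinoic acid the same unadjusted limit was met by 33 members, 24 of them higher, and by 4296 of all genes (23.5%).

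That smallest p belonged to Epha2, a receptor of epithelia and of pluripotent cells. Its signals in undifferentiated and treated cells were 8.94 and 8.23 in the wild type and 9.88 and 9.67 in the Ctcfl line. Both arrays of the Ctcfl line were above both wild-type arrays. Epha2 was 1.92-fold higher in the Ctcfl line without and 2.71-fold higher with retinoic acid (log2 1.19 ± 0.18, SE, over both states). Sema3e had signals of 8.20 and 7.59 in the wild type and 8.93 and 8.70 in the Ctcfl line, and was 1.66-fold and 2.15-fold higher there (adjusted p = 0.229 in limma). Its groups did not overlap either. Unc5b was 1.63-fold and 1.75-fold higher (adjusted p = 0.252), with signals of 9.85 and 9.79 in the wild type and 10.55 and 10.59 in the Ctcfl line.

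In undifferentiated cells alone, 2 members exceeded wild type by 2-fold or more in the Ctcfl line (0.726% of all genes) and 2 were lower by as much (1.09%). The higher genes were Nrp2, at 3.58-fold, and Plxnc1, the receptor of Sema7a, at 2.56-fold. Plxnc1 had signals of 7.38 and 8.23 in the wild type and 8.73 and 8.67 in the Ctcfl line, undifferentiated and treated. As with Nrp2, the low array was that of undifferentiated wild-type cells. The lower genes were Epha7, at 2.69-fold, and Unc5a, at 2.13-fold. Unc5a had signals of 9.20 and 8.83, and of 8.11 and 8.83, so that its low array was that of undifferentiated cells of the Ctcfl line. Probe sets of 1 gene varied with an SD of log2 0.26 in this comparison.

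In retinoic acid, 2 members exceeded wild type by 2-fold or more in the Ctcfl line (0.83% of all genes) and 1 was lower by as much (0.399%). The higher genes were Epha2 and Sema3e. The lower gene was Robo2, at 3.68-fold (log2 -1.88). With quantile normalization 1 was higher and 1 lower. The SD between probe sets of 1 gene in this comparison was log2 0.23. The wild-type and Ctcfl-line arrays used here also enter the retinoic acid comparisons, so these values are not independent of those above.

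The third comparison set the retinoic acid responses of the lines against each other. The difference of responses, that of the Ctcfl line minus that of wild type, was at least 2-fold above 0 for 2 members (1.9% of all genes) and at least 2-fold below 0 for 4 (0.754%). Those below were Nrp2 (log2 -2.06), Robo2 (-1.67), Sema3d (-1.65) and Epha3 (-1.04). Those above were Unc5a (1.09) and Sema6b (1.00). With quantile normalization 0 were above and 5 below. The SD of this quantity between probe sets of 1 gene was log2 0.32, and with 1 array per condition the difference of responses cannot be tested.

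The routes to these differences were not alike. For Robo2 the undifferentiated signals lay within 0.21 log2 units and the treated ones apart, whereas for Nrp2 the treated signals lay within 0.22 units and the undifferentiated ones apart. Sema3d differed in both states and in opposite directions, 0.85 higher and then 0.80 lower in the Ctcfl line. Both of its undifferentiated signals were in the background range below log2 7.04, so the first of these differences is uncertain. Epha3, an ephrin-A5 receptor, had signals of 6.49 and 7.32 in the wild type and 6.59 and 6.39 in the Ctcfl line. Its 3 low arrays were in the background range below log2 7.04, so the size of its difference is uncertain.

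**Figure D4:**
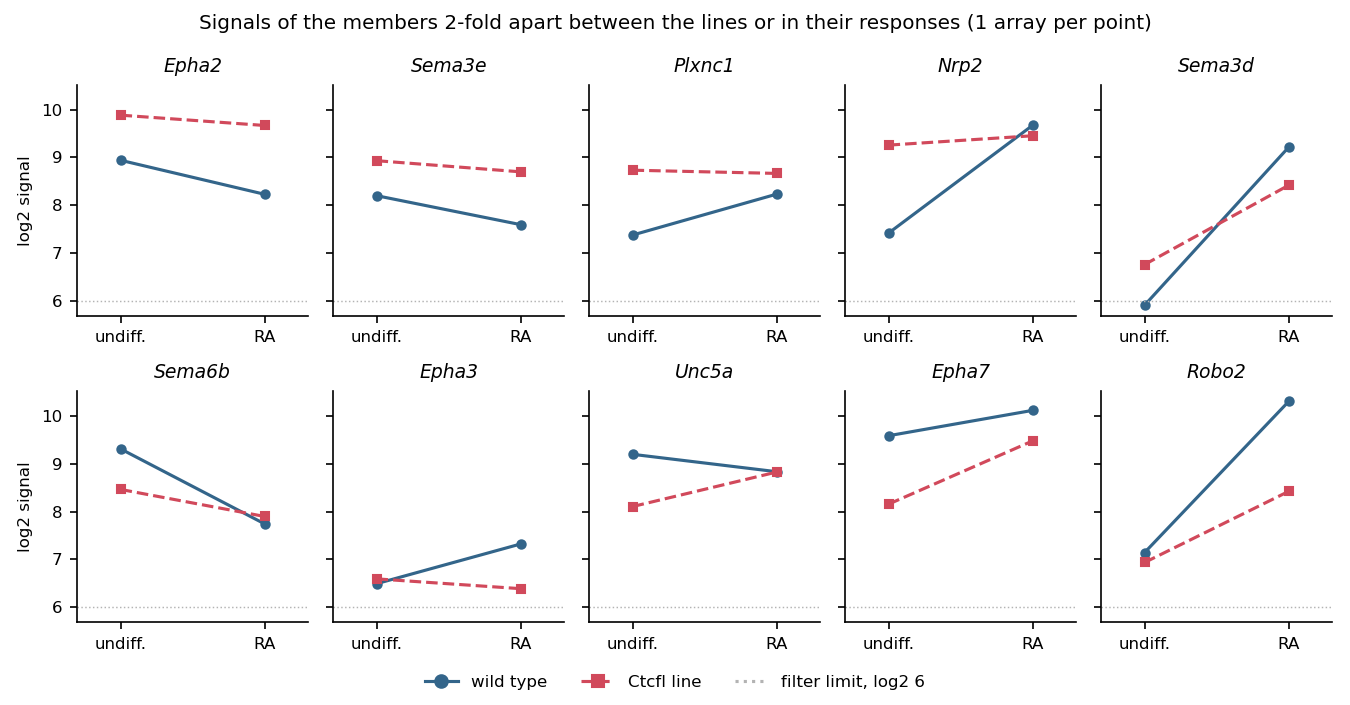
Log2 signal on each of the 4 arrays of the 10 genes at least 2-fold apart between the lines in a state or in their response to retinoic acid (RA), undifferentiated on the left of each panel. Epha2 and Sema3e lie higher in the Ctcfl line in both states, Nrp2 starts apart and meets at 9.67 and 9.45, and Robo2 starts together and ends at 10.31 and 8.42.

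Other genes of the pathway came from 2 lists. In limma, 5 of 35 co-receptors and other guidance cues past the filter rose with retinoic acid (14.3%, where 4.21% of all genes rose). In the same list 2 fell (5.71%, where 2.44% of all genes fell), and 28 did not pass. Draxin, a secreted ligand of netrin receptors, rose 4.87-fold (adjusted p = 0.00187), with signals of 7.73 and 9.74 in the wild type and 8.15 and 10.71 in the Ctcfl line. Neo1, a receptor for netrins and repulsive guidance molecules, rose 2.30-fold (adjusted p = 0.0101), Met, which binds B-type plexins, 2.73-fold (adjusted p = 0.00689), and Adam10, the protease that cleaves ephrins, 2.22-fold (adjusted p = 0.0244). Vegfc rose by log2 0.67 (adjusted p = 0.0491). The chemokine gene Cxcl12 fell 4.09-fold (adjusted p = 0.00281) and the adhesion gene Nrcam fell 1.81-fold (adjusted p = 0.0479). Vegfc and Nrcam passed close to the limit of 0.05. Calls in the 2 lists were not followed under other processing settings.

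Of 56 intracellular effectors past the filter, 6 rose (10.7%, where 4.21% of all genes rose) and 50 did not pass. They included Dpysl2 and Dpysl3, collapsin response proteins that act below the semaphorin receptors, which rose by log2 0.77 and 1.31 (adjusted p = 0.0352 and 0.00611 in limma). Farp2, an exchange factor bound to A-type plexins, had signals of 6.29 and 7.60 in wild type and of 6.69 and 7.63 in the Ctcfl line, and rose (adjusted p = 0.0132). Its undifferentiated signals were in the background range, so the size is not exact. In the same list Cfl2, an actin-severing cofilin, rose 2.72-fold (adjusted p = 0.00833). Nck2, an adaptor of Robo and ephrin-B signalling, rose by log2 0.98 and the kinase gene Abl1 by 0.76 (adjusted p = 0.0396 and 0.0332). The lowest effect was that of Mical1, an oxidase of actin below plexins, at log2 -0.79 (adjusted p = 0.126). The median effect was log2 0.16 for effectors and 0.10 for co-receptors and cues, where all genes had -0.05.

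RNA came from whole cultures, so fewer cells of a type and less RNA per cell cannot be told apart. Marker lists moved with retinoic acid in several directions in limma, where 4.21% of all genes rose and 2.44% fell. Of 9 pluripotency markers past the filter 5 fell, and of 12 neuron markers 1 rose and 5 fell. Of 9 neural progenitor markers 4 rose and 1 fell, of 13 neural crest and mesenchyme markers 3 rose and 1 fell, and of 9 endoderm markers 2 rose. Of 10 endothelial and 6 smooth muscle markers 1 each rose. Their part in the changes of guidance genes was not tested.

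The difference of responses, Ctcfl line minus wild type, was below 0 for 8 of 13 mesenchyme and 6 of 10 endothelial markers, with list medians of log2 -0.56 and -0.20. This was not particular to these lists. It was below 0 for 9 of 9 endoderm (median -0.46), 5 of 6 smooth muscle (-0.13) and 6 of 9 neural progenitor markers (-0.12). For pluripotency it was below 0 for 4 of 9 (median 0.21) and for neurons 4 of 12 (0.24). The median of all genes was log2 -0.01. Their share below 0 was not counted, so the counts below 0 describe the lists and are not a result about them. At least 2-fold differences went both ways among mesenchyme markers, 3 below 0 and 1 above, and 2 endothelial markers were below. The following markers were named after their values were seen. The mesenchyme gene Twist1 had signals of 7.17 and 9.56 in the wild type and 7.74 and 7.48 in the Ctcfl line, with a difference of responses of log2 -2.65. The neural crest gene Sox10 went the other way, with signals of 7.38 and 7.42 in wild type and of 7.21 and 8.59 in the Ctcfl line (log2 1.34), and Pdgfra (0.68) and Col1a1 (0.69) were also above 0. The endothelial genes Kdr, also in the list of cues, and Cdh5 differed by log2 1.65 and 1.00 with retinoic acid in the wild type and by 0.11 and -0.43 in the Ctcfl line. Cdh5 had signals of 6.78 and 7.77 in the wild type and 6.90 and 6.47 in the Ctcfl line, mostly in the background range below log2 7.04. The undifferentiated wild-type signal of Kdr, 6.84, was in that range as well. Differences of responses were above 0 for the endothelial genes Pecam1 (log2 0.20), Tek (0.30), Erg (0.43) and Egfl7 (0.04). The median of the mesenchyme list was 7.38 and 8.16 in the wild type and 7.46 and 7.89 in the Ctcfl line, and that of the endothelial list was between 6.85 and 7.23 on the 4 arrays. Whether they share cells with the guidance genes was not tested.

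Array signals depend on the probe as well as the transcript, so levels were not compared between genes. Of the 67 members, 44 passed no test and were under 2-fold in all 5 comparisons, with retinoic acid effects between log2 -0.64 for Slit3 and 0.67 for Epha4. Epha5, Epha6, Plxna4os1, Plxnb3, Robo3 and Sema4f had their highest signal below log2 7.04, in the background range, so differences of these 6 genes have little meaning.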

How the data were processed

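Deposited log2 signals came from RMA, run by the authors with Affymetrix Expression Console, per the labels. Transcriptome Analysis Console is another tool in the submitters' processing notes. Versions and genome build are not given in the sources used here. Of 41345 probe sets, 23521 had 1 gene symbol in the platform annotation, 1814 several and 16010 were unlisted. Each gene was represented by the probe set, among those with 1 symbol, of highest mean signal, and needed a log2 signal of at least 6 on 1 array. Array medians were 6.95 to 6.96, correlations between arrays 0.961 to 0.985.

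Retinoic acid and line effects came from limma 3.58.1 in R 4.3.3 (lmFit, eBayes, additive terms, 4 arrays, 1 residual and 5.49 prior degrees of freedom). Tests were two-sided, with Benjamini-Hochberg adjustment over 18310 genes. The code was tried on simulated arrays with the same shift in both lines, which does not check the p-values of these data. With 1 array per condition, other differences are descriptions. The error behind the p-values is the inequality of the retinoic acid difference between the 2 lines, moderated over all genes. They do not measure the spread between replicate cultures or arrays, as there were no replicates. All members could be named, with values on all arrays for those past limma or 2-fold apart; listed pathway genes were named where they passed limma or were extreme. Members, lists and rules were chosen with earlier results of these data known.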

Additional observations from a re-analysis of the deposited data

Results flagged for a closer look

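Of the 67 genes, 8 had opposite directions in the 2 lines or the 2 states, with both differences larger than the SD between probe sets of 1 gene in that comparison. The share of all genes that meet this rule was not counted, so the 8 are a list to look at and not a result about the members. With 1 array per condition the difference between groups was not tested in any of them.

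The line difference (Ctcfl line minus wild type) of Sema3d was log2 0.85 without and -0.80 with retinoic acid, a difference of -1.65. That of Efnb2 was 0.45 and -0.42 (-0.87), and that of Nrp1 0.34 and -0.49 (-0.83). These 3 genes thus started higher and ended lower in the Ctcfl line. For Sema3d and Nrp1 both undifferentiated signals were in the background range below log2 7.04, so their starting difference is uncertain. The reverse held for Slit2, at -0.57 and 0.25 (0.82), Sema3b, at -0.42 and 0.33 (0.75), and Ephb3, at -0.29 and 0.33 (0.62). The retinoic acid difference of Unc5a was -0.36 in the wild type, but 0.72 for the Ctcfl line (1.09), and that of Sema4g was -0.43 and 0.39 (0.83).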

How the results depend on the processing

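The 14 members that passed for retinoic acid became 12 without the filter (Efnb1 and Sema6c lost), 14 with a filter at log2 7, which left 61 members, 17 with quantile normalization (Epha7, Sema6b and Slit3 added), 13 with the mean of probe sets (Plxnb1 lost, log2 0.53), 15 with a variance prior that follows mean expression (Sema6b added) and 11 with a 2-fold limit on the calls (Efnb1, Plxnb1 and Sema3a lost). Under these 6 alternatives the number lower was 1, except 3 with quantile normalization and 2 with the variance prior. The line gave 0 members under each of them; the smallest adjusted p was 0.0951, with quantile normalization, where 23 genes passed in all. Members at least 2-fold apart kept their sign with quantile normalization, a filter at log2 7 and the mean of probe sets. Counts of 2-fold members moved by at most 1 in total under the 4 alternatives that apply to them. The total hides changes in the difference of responses with quantile normalization. There, 4 of the 6 members stayed 2-fold, the number above 0 went from 2 to 0 and the number below from 4 to 5. The additive fit already compares the states within each line. A block by replicate number could not be fitted because the labels carry none, and leaving out an array leaves no residual degrees of freedom. Precision is limited by the number of arrays and, for low signals, by background.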
